A study of Mus musculus with 8 samples.

Results

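The genes described here are 31 components of DNA replication, taken as a list by name: the minichromosome maintenance (Mcm) helicase subunits and their loaders, the proteins that switch the helicase on, polymerase and primase subunits, the sliding clamp and its loader, flap endonuclease and ligase, enzymes of nucleotide supply, chromatin factors behind the fork, and regulators of entry into S phase. Of the 31, 30 matched a probe by accession, and all 30 were kept and tested among 13331 genes. Rrm2, the small subunit of ribonucleotide reductase, had no accession match and has no value here. Every probe of the 30 genes was well above background on all 8 arrays, so none entered through only 1 group.

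In a dividing cell, the origin recognition complex, Cdc6 and Cdt1 load the Mcm ring onto DNA in G1, a step called licensing. At the start of S phase, kinases bring Cdc45 and the GINS complex to the ring, which makes it an active helicase, and polymerases then copy both strands with the clamp PCNA. Many of these genes are targets of E2F transcription factors, are transcribed from late G1 into S phase, and serve as markers of cycling progenitor cells in the adult hippocampus.

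The study profiled secondary neurospheres, floating clusters that hippocampal stem and progenitor cells form after primary spheres are taken apart and seeded again, with bFGF and EGF at 20 ng/ml each. Its title sets loss of SIRT1, an NAD-dependent deacetylase, beside its gain of function, for which resveratrol, a plant polyphenol, was used. There were 4 groups of 2 samples, with 1 Agilent one-colour array each and donors 7 to 9 weeks old. WT and Sirt1 KO spheres were of strain 129/ICR and were harvested after 6 days, with females as donors for replicate 1 and males for replicate 2. DMSO and resveratrol spheres were WT cells of C57BL/6 males, cultured for 5 days and then exposed for 24 hours to the solvent or to resveratrol (dose 10, unit written "mm" in the label). The labels do not describe the Sirt1 allele, a Cre driver or whether replicates were separate cultures. A p-value here therefore reflects only how far apart the 2 arrays within groups lay, which may be technical. That spread was pooled over the 4 groups and drawn toward that of genes of like intensity.

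The targeted gene, Sirt1, had log2 levels of 0.16 and 0.17 on the WT arrays and 0.42 and -0.07 on the Sirt1 KO arrays, where the level is the log2 signal relative to the 75th percentile of the array. A second probe was at -1.34 and -0.99 in WT and -1.01 and -1.92 in Sirt1 KO. The fitted difference of the first was 0.01 (SE 0.24), and the position of its probes relative to the deleted part is not given in the sources used here, so these levels check nothing about the genotype labels. Arrays of replicate 1 had a 75th percentile signal between 716 and 871 and those of replicate 2 between 249 and 377. The share of probes well above background ran from 53.1% to 72.0%. The arrays sat on 3 slides: WT 1, DMSO 1 and resveratrol 1 on the first, Sirt1 KO 1, DMSO 2 and resveratrol 2 on the second, and WT 2 and Sirt1 KO 2 on the third, the only slide of its scan day. All 10 neural stem and progenitor markers listed were measured. Of the markers of other cells, 6 of 7 for microglia (Aif1, Cx3cr1, Itgam, Ptprc, C1qa and Tyrobp) and 4 of 6 for endothelium (Pecam1, Cdh5, Tek and Cldn5) were not well above background on both arrays of any group.

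Promoters are described because E2F factors bind short GC-rich words that begin with a run of T. The words TTTCCCGC, TTTGGCGC, TTTCGCGC and TTTGCCGC were searched on both strands, overlaps allowed, in the 250 bases before the transcription start, in RefSeq promoters of build GRCm38.p6. Of the 31 genes, 26 had an entry, and 8 of these 26 (30.8%) held at least 1 such word: Mcm5, Mcm6, Mcm7, Cdc6, Gins3, Pola1, Rfc3 and Uhrf1. Among all genes with an entry, 583 of 27025 (2.16%) held one. CCAAT, the word of the CCAAT box, was present on either strand in 16 of the 26 (61.5%) and in 37.5% of all genes. A match describes these letters and is not a measured binding site.

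Promoters of 4 of the 8 are shown because their levels are described below for the largest differences or, for Mcm6, because it held the most E2F words, 3 in all. They lie before the start site at chr1:128359706-128359955 on the minus strand (Mcm6), chr8:75109259-75109508 on the plus strand (Mcm5), chr8:95633309-95633558 on the plus strand (Gins3) and chrX:93632156-93632405 on the minus strand (Pola1), and are written 5′ to 3′ in the direction of the gene. Capitals mark the E2F words and CCAAT (or their reverse complements), and words that overlap run together.
Mcm6: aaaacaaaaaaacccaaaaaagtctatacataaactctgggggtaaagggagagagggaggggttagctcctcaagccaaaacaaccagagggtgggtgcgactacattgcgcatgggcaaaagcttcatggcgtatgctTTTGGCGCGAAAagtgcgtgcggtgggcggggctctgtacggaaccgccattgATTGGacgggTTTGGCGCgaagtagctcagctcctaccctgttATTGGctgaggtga
Mcm5: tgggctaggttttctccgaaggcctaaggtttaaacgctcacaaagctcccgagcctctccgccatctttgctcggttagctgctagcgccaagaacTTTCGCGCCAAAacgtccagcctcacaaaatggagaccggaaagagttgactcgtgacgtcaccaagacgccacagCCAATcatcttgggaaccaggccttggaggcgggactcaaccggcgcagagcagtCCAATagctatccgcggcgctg
Gins3: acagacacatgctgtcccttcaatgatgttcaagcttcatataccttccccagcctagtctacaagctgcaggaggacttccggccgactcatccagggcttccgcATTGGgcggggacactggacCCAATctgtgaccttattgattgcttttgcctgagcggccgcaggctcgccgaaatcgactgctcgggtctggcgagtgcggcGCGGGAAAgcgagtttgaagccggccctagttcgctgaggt
Pola1: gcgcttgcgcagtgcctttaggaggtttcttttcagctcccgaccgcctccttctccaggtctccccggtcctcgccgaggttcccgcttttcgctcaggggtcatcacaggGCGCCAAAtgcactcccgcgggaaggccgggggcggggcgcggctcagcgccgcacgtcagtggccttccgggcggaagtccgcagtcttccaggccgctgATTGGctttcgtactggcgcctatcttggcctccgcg

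The replication genes were mostly lower on the replicate 1 array than on the replicate 2 array of the same group. The median over the 30 genes of replicate 1 minus replicate 2 was -0.61 on the log2 scale in WT, -0.90 in Sirt1 KO, -0.92 in DMSO and -0.76 in resveratrol. Over all genes the same medians lay between -0.26 and -0.15. Replicate 1 was the lower array in all 4 groups for 23 of the 30 genes (76.7%), against 44.3% of all genes, and the higher array in all 4 groups for 0 of the 30, against 21.4%. With quantile normalization these medians were -0.15, -0.58, -0.58 and -0.45, and replicate 1 was lower in all 4 groups for 16 of the 30, against 35.2% of all genes. In the deposited table the medians were -0.031, -0.37, -0.57 and -0.43, with 15 of the 30 lower in all 4 groups against 27.4% of all genes, and the medians over all genes in WT and Sirt1 KO turned to 0.11 and 0.13, but arrays of these groups lie in sets that were normalized separately. With normexp on the median signals the count was 22 of the 30, against 55.5%. The summed level relative to the 75th percentile was also lower on replicate 1 over all genes. It was 82419 against 150620 in WT, 78535.5 against 143760 in Sirt1 KO, 83020 against 136315 in DMSO and 84669 against 152835 in resveratrol. For the 30 genes the sums were 297 against 503, 203 against 419, 227 against 453 and 208 against 403. The 75th percentile signal was higher on every replicate 1 array, and replicate number is also the donor's sex among WT and Sirt1 KO samples. The replicates of each group also lay on different slides, and those of WT and Sirt1 KO were scanned on different days. The part of signal, sex, slide and scan day in this difference was not tested. In these bulk samples fewer cells in S phase, less RNA per cell and a difference in scale between arrays cannot be told apart.

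Dut, the dUTPase that keeps uracil out of DNA, and Tyms, the enzyme that makes thymidylate, had the largest differences between replicates in the WT, Sirt1 KO and DMSO groups. Dut had log2 levels of 3.75 and 5.10 on the WT arrays, 3.22 and 4.87 on the Sirt1 KO arrays, 3.33 and 4.77 on the DMSO arrays, and 3.21 and 4.58 on the resveratrol arrays. Replicate 1 minus replicate 2 was between -1.65 and -1.35 in the 4 groups. Levels of Tyms were 3.17 and 4.53 on the WT arrays, 2.62 and 4.22 on the Sirt1 KO arrays, 2.73 and 4.21 on the DMSO arrays, and 2.66 and 4.21 on the resveratrol arrays, with the same order. A few genes departed from the pattern in the WT group, where Mcm3, Chaf1a, Cdc45, Gins2 and Pole were higher in replicate 1, by 0.51, 0.41, 0.16, 0.14 and 0.06.

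**Figure D1:**
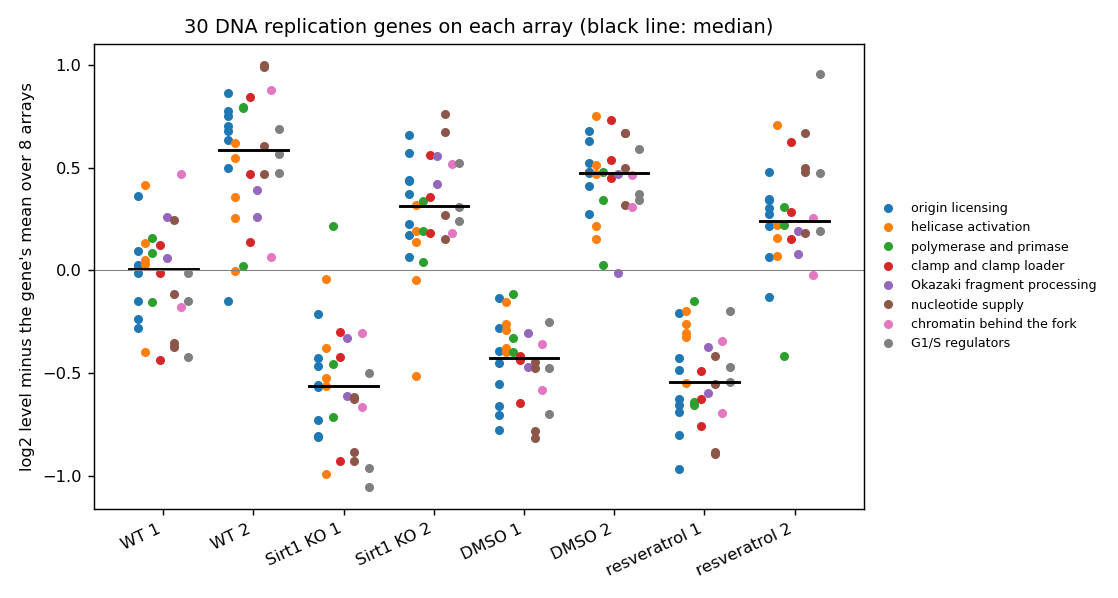
The vertical axis is the log2 level of each of the 30 DNA replication genes minus that gene's mean over the 8 arrays, with 1 point per gene coloured by role and a black line at the median. The medians were 0.01 and 0.59 on WT arrays 1 and 2, -0.56 and 0.31 for Sirt1 KO, -0.43 and 0.47 for DMSO, and -0.54 and 0.24 for resveratrol, so each replicate 1 array sat below its replicate 2 array, which also held with quantile normalization at smaller gaps.

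**Figure D2:**
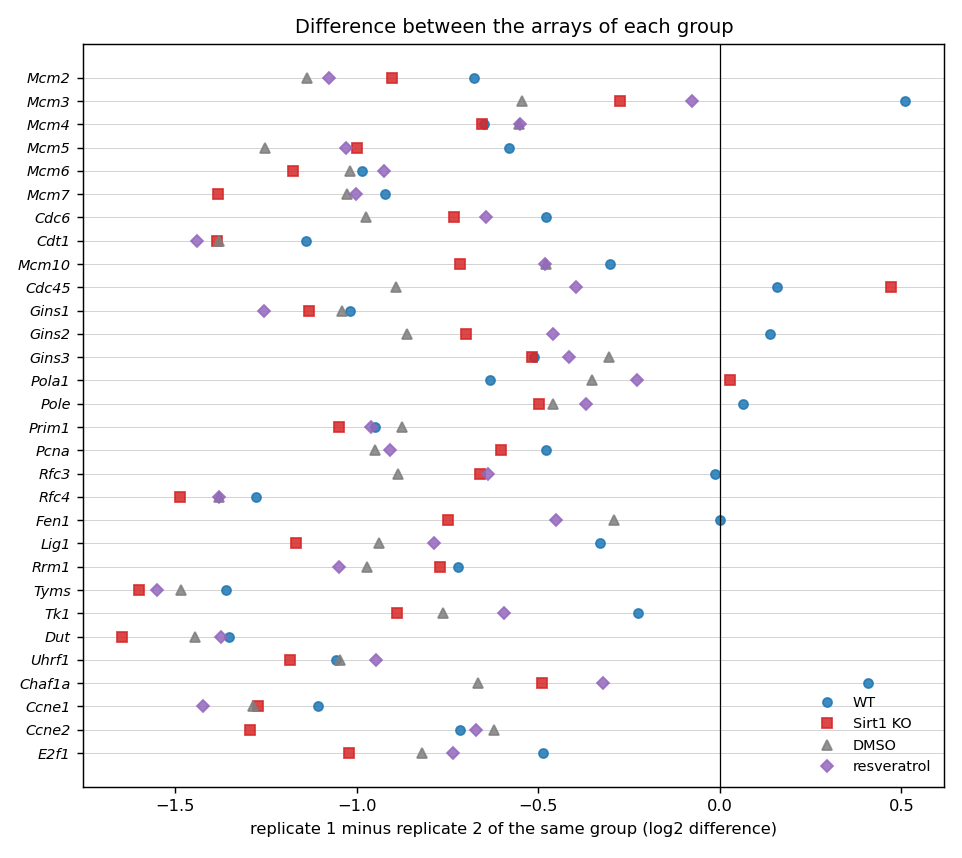
Each row is 1 gene, ordered by role, and each mark is the log2 level on replicate 1 minus that on replicate 2 in 1 group. Marks left of 0 are lower in replicate 1, which held in all 4 groups for 23 of the 30 genes (16 with quantile normalization), and Mcm3, Cdc45, Gins2, Chaf1a, Pola1, Pole and Fen1 had a mark at or right of 0 in at least 1 group.

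By group mean, WT was the highest group for 26 of the 30 genes, DMSO for 3 (Mcm3, Gins1 and Pole) and resveratrol for 1 (Ccne1). The lowest group was resveratrol for 15, Sirt1 KO for 14 and DMSO for 1 (Fen1). Single arrays were ordered mainly by replicate: WT 2 was the highest array for 17 genes and DMSO 2 for 8, and Sirt1 KO 1 was the lowest for 16 and resveratrol 1 for 10. For most genes the neighbouring groups in this order overlapped, as the values for single genes below show.

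The first comparison asks how loss of Sirt1 relates to the replication genes. All 30 were lower in Sirt1 KO than in WT by the fitted difference, against 7430 of all 13331 genes. None of these differences passed the test. With a local background fitted by normexp to the median signals 19 of the 30 were lower, and with 1 background value per array all 30 were. The median of the 30 was -0.40 against -0.03 over all genes (-0.080 and 0.01 with normexp on the median signals and the local background). Ccne2, Cdc45, Gins3, Gins1 and Tk1 had the largest differences, from -0.62 to -0.54, which is a 1.54-fold to 1.45-fold lower level. Gins2, Rfc3 and Mcm3 had the smallest, from -0.09 to -0.18.

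By limma with Benjamini-Hochberg adjustment, 0 of the 30 genes and 0% of the 13331 genes tested had an adjusted p under 0.05, and at an unadjusted p under 0.05 there were 0 of the 30 and 158 of all genes (1.19%). When arrays with the same replicate number were set against each other (pair 1 and pair 2), 21 of the 30 (9 with that normexp) were lower in both pairs and 0 were higher in both, against backgrounds of 32.6% and 23.5% of all genes. The median was -0.55 between the replicate 1 arrays, which lay on different slides, and -0.27 between the replicate 2 arrays, which shared the third slide. With slide as a block the median was -0.77, against -0.11 over all genes. In the DMSO and resveratrol groups slide 1 held replicate 1 and slide 2 held replicate 2. This block therefore cannot tell slide from replicate number. Leaving out Sirt1 KO 1 turned the median to 0.04 (0.12 over all genes), and leaving out WT 2 brought it to -0.09. It was -0.84 without Sirt1 KO 2 and -0.73 without WT 1. Each such set puts 1 array of a group against both of the other, so the gap between replicates enters these medians.

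Among the licensing factors, 7 of 8 were lower in both pairs, with a median of -0.42 over the 8 (2 of 8 and -0.05 with normexp on the median signals). Mcm2, a subunit of the helicase ring that is widely used as a marker of cycling cells, had log2 levels of 2.87 and 3.55 on the WT arrays, 2.38 and 3.29 on the Sirt1 KO arrays, 2.19 and 3.33 on the DMSO arrays, and 2.05 and 3.12 on the resveratrol arrays. The WT and Sirt1 KO arrays overlapped, with Sirt1 KO 2 above WT 1, and the difference of -0.38 (SE 0.56) turned to 0.03 under normexp on the median signals. The other ring subunits Mcm4, Mcm5, Mcm6 and Mcm7 had differences of -0.41, -0.45, -0.47 and -0.43, and the loaders Cdc6 and Cdt1 of -0.45 and -0.33. Mcm3, also in the ring, was the exception: it was -0.57 in pair 1 and 0.21 in pair 2.

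The helicase activators had the lowest median of any role, -0.54 over 5 genes. With normexp on the median signals it was -0.24, and that of the regulators was -0.32. Only 2 of the 30 genes, both of this role, had both Sirt1 KO arrays below both WT arrays. That share was no larger than the 7.38% of all genes. Cdc45, which joins the Mcm ring to form the active helicase, was at -0.41 and -0.57 on the WT arrays and -0.87 and -1.34 on the Sirt1 KO arrays. Its difference was -0.61 (SE 0.36), with an adjusted p of 0.999995 by limma. Cdc45 was also the only 1 of the 30 whose replicate 1 array was the higher one in both of these groups.

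Gins3, a subunit of the GINS complex, was at -0.21 and 0.31 on the WT arrays and -0.80 and -0.28 on the Sirt1 KO arrays. Its pairs were alike, -0.59 and -0.59, and the difference was -0.59 (SE 0.31), with an adjusted p of 0.999995 by limma. The range within each group was nearly as wide as this difference.

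Gins1, of the same complex, had levels of 1.11 and 2.13 on the WT arrays, 0.51 and 1.64 on the Sirt1 KO arrays, 1.22 and 2.26 on the DMSO arrays, and 0.96 and 2.21 on the resveratrol arrays. Its difference was -0.54 (SE 0.63), but a second probe gave -0.17, with pairs of -0.52 and 0.17, so the probes disagreed in pair 2. Gins2 was at 1.35 and 1.21 in WT and 0.84 and 1.54 in Sirt1 KO. The Sirt1 KO arrays lay on either side of both WT arrays, and its difference of -0.09 (SE 0.38) turned to 0.14 under normexp on the median signals. Mcm10, which helps the helicase start, was lower in both pairs, with a difference of -0.37 (SE 0.35).

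Of the polymerase genes, Prim1, the catalytic primase subunit, was lower in both pairs with a difference of -0.51 (SE 0.56). Pola1, the catalytic subunit of polymerase alpha, which extends the primer, was 0.06 in pair 1 and -0.60 in pair 2. Pole, the catalytic subunit of the leading strand polymerase, was -0.54 and 0.02. Their fitted differences were -0.27 (SE 0.28) and -0.26 (SE 0.29).

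PCNA, the ring that holds polymerases on DNA, had log2 levels of 5.20 and 5.68 on the WT arrays, 4.80 and 5.40 on the Sirt1 KO arrays, 4.80 and 5.75 on the DMSO arrays, and 4.59 and 5.50 on the resveratrol arrays for its gene Pcna. WT and Sirt1 KO overlapped, and the difference of -0.35 (SE 0.51) turned to 0.04 under normexp on the median signals. Rfc4, a subunit of the complex that loads the clamp, had a difference of -0.39 (SE 0.78). Rfc3, of the same complex, was at 0.39 and 0.40 in WT and -0.04 and 0.62 in Sirt1 KO, a difference of -0.10 (SE 0.40): the WT arrays were nearly equal and the Sirt1 KO arrays lay on either side of them.

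Fen1, the flap endonuclease, and Lig1, the ligase, finish Okazaki fragments, and both had opposite signs in the pairs. Fen1 was -0.59 in pair 1 and 0.16 in pair 2, and Lig1 -0.67 and 0.17. All 4 measured genes of nucleotide supply were lower in both pairs, with a median of -0.45 (1 of 4 and -0.12 with normexp on the median signals). Tk1, the thymidine kinase of the salvage pathway, was at 3.97 and 4.19 in WT and 3.10 and 3.99 in Sirt1 KO, a difference of -0.54 (SE 0.43), with Sirt1 KO 2 just above WT 1. Rrm1, the large subunit of ribonucleotide reductase, Tyms and Dut had differences of -0.48, -0.43 and -0.38, with SEs of 0.54, 0.85 and 0.83.

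Behind the fork, Uhrf1, which reads half-methylated DNA and brings in Dnmt1, was lower in both pairs, with a difference of -0.43 (SE 0.62). Chaf1a, a subunit of the histone chaperone CAF-1, was -0.78 in pair 1 and 0.12 in pair 2. Among the regulators, Ccne2, one of the E cyclins that drive cells from G1 into S phase, had levels of -0.85 and -0.13 on the WT arrays, -1.76 and -0.46 on the Sirt1 KO arrays, -0.95 and -0.33 on the DMSO arrays, and -0.90 and -0.23 on the resveratrol arrays. Its difference of -0.62 (SE 0.51) was the largest of the 30, the groups overlapped, and a second probe gave -0.75. Ccne1, the other E cyclin, had a difference of -0.46 (SE 0.73). E2f1, the transcription factor that turns on many of these genes, was at -0.97 and -0.48 in WT and -1.45 and -0.43 in Sirt1 KO, and its difference of -0.21 (SE 0.48) was -0.02 by a second probe.

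The genes with an E2F word in the promoter had a median difference of -0.44 over 8 genes, with a range from -0.59 to -0.10. The 17 measured genes with an entry and no such word had a median of -0.38, with a range from -0.61 to -0.18. The ranges overlapped almost fully, and the medians were -0.10 and -0.0087 with normexp on the median signals.

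**Figure D3:**
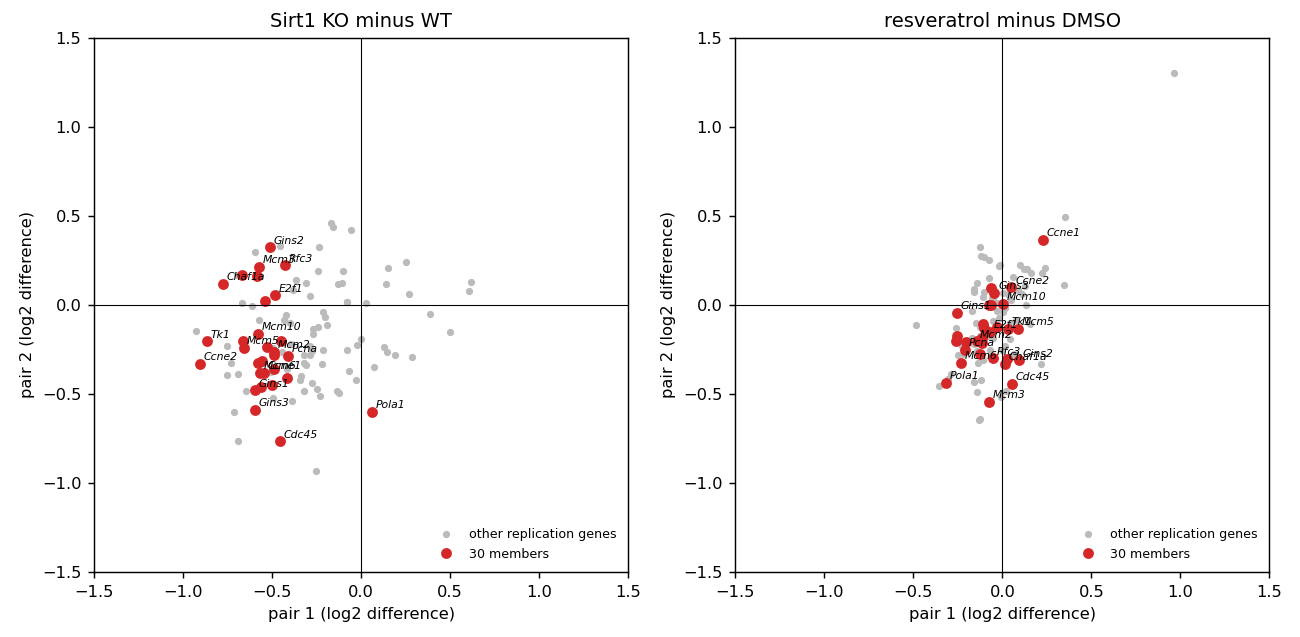
The horizontal axis is the log2 difference between the replicate 1 arrays and the vertical axis that between the replicate 2 arrays, with the 30 genes in red (some named) and the other replication genes in grey. For Sirt1 KO minus WT, 21 of the 30 red points lie below 0 on both axes (9 with normexp on the median signals), and Pola1 is the only red point right of 0. For resveratrol minus DMSO they lie near 0, with Pola1 and Mcm3 lowest and Ccne1 highest. The axes end at 1.5, which leaves out 1 grey point, Cdk2, in the first panel.

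The second comparison asks how 24 hours of resveratrol relates to the same genes in WT cells. The median of resveratrol minus DMSO was -0.15 against 0.01 over all genes. By the fitted difference 25 of the 30 genes were lower, against 6424 of all 13331. Pola1, Mcm3 and Mcm6 were lowest, at -0.38, -0.31 and -0.28, and Ccne1 was highest, at 0.30. None passed the test.

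By limma, 0 of the 30 genes and 0% of the 13331 tested had an adjusted p under 0.05, with 0 of the 30 and 203 of all genes (1.52%) at an unadjusted p under 0.05. Pairs here share a slide. Within these pairs 18 of the 30 were lower in both and 3 were higher in both (Ccne1, Ccne2 and Mcm10), against 33% and 35.5% of all genes, and the medians within the pairs were -0.07 and -0.18. Because the replicates of each group differ by more than this, leaving out an array moved the median from -0.62 (without DMSO 1) and -0.49 (without resveratrol 2) to 0.31 (without DMSO 2) and 0.25 (without resveratrol 1).

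Pola1 was the only 1 of the 30 with both resveratrol arrays below both DMSO arrays, a smaller share than the 8.86% of all genes. Its log2 levels were 1.21 and 1.85 on the WT arrays, 1.28 and 1.25 on the Sirt1 KO arrays, 0.73 and 1.08 on the DMSO arrays, and 0.42 and 0.64 on the resveratrol arrays. The resveratrol arrays were the lowest of the 8, the Sirt1 KO arrays lay within the WT range, and the difference from DMSO was -0.38 (SE 0.28), with an adjusted p of 0.999996 by limma.

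Mcm3 was at 1.39 and 1.94 on the DMSO arrays and 1.32 and 1.39 on the resveratrol arrays. The difference of -0.31 (SE 0.29) came mainly from DMSO 2, the highest of the 8 arrays for this gene, with pairs of -0.07 and -0.54. Mcm6 had levels of 5.32 and 6.30 on the WT arrays, 4.75 and 5.92 on the Sirt1 KO arrays, 5.16 and 6.18 on the DMSO arrays, and 4.93 and 5.85 on the resveratrol arrays. Its pairs were -0.23 and -0.33, both small beside the gap of about 1 log2 unit between its replicates.

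Ccne1 went the other way from most of the list. It had levels of 2.85 and 3.96 on the WT arrays, 2.31 and 3.58 on the Sirt1 KO arrays, 2.57 and 3.86 on the DMSO arrays, and 2.80 and 4.23 on the resveratrol arrays. Resveratrol was higher in both pairs, by 0.23 and 0.37, with a fitted difference of 0.30 (SE 0.73) and 0.20 by a second probe. DMSO and resveratrol overlapped because replicate 1 of both was more than 1 log2 unit below replicate 2.

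The smallest differences were those of Mcm10 and Gins3. Mcm10 was at 2.69 and 3.17 on the DMSO arrays and 2.69 and 3.18 on the resveratrol arrays, a difference of 0.0037 (SE 0.35). Gins3 was at -0.39 and -0.09 and -0.43 and -0.02, a difference of 0.01 (SE 0.31). Pcna, Mcm2 and E2f1 had differences of -0.23 (SE 0.51), -0.17 (SE 0.56) and -0.11 (SE 0.48), each lower in both pairs. E2f1 was at -1.43 and -0.61 on the DMSO arrays and -1.50 and -0.76 on the resveratrol arrays, so the groups overlapped.

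By role, all 8 licensing factors were lower by the fitted difference, with a median of -0.19, as were all 3 clamp genes (median -0.18) and all 3 polymerase genes (median -0.21). The 5 helicase activators had a median of -0.11 and the 4 genes of nucleotide supply -0.05. The 3 regulators had a median of 0.08 (-0.0095 with normexp on the median signals).

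**Figure D4:**
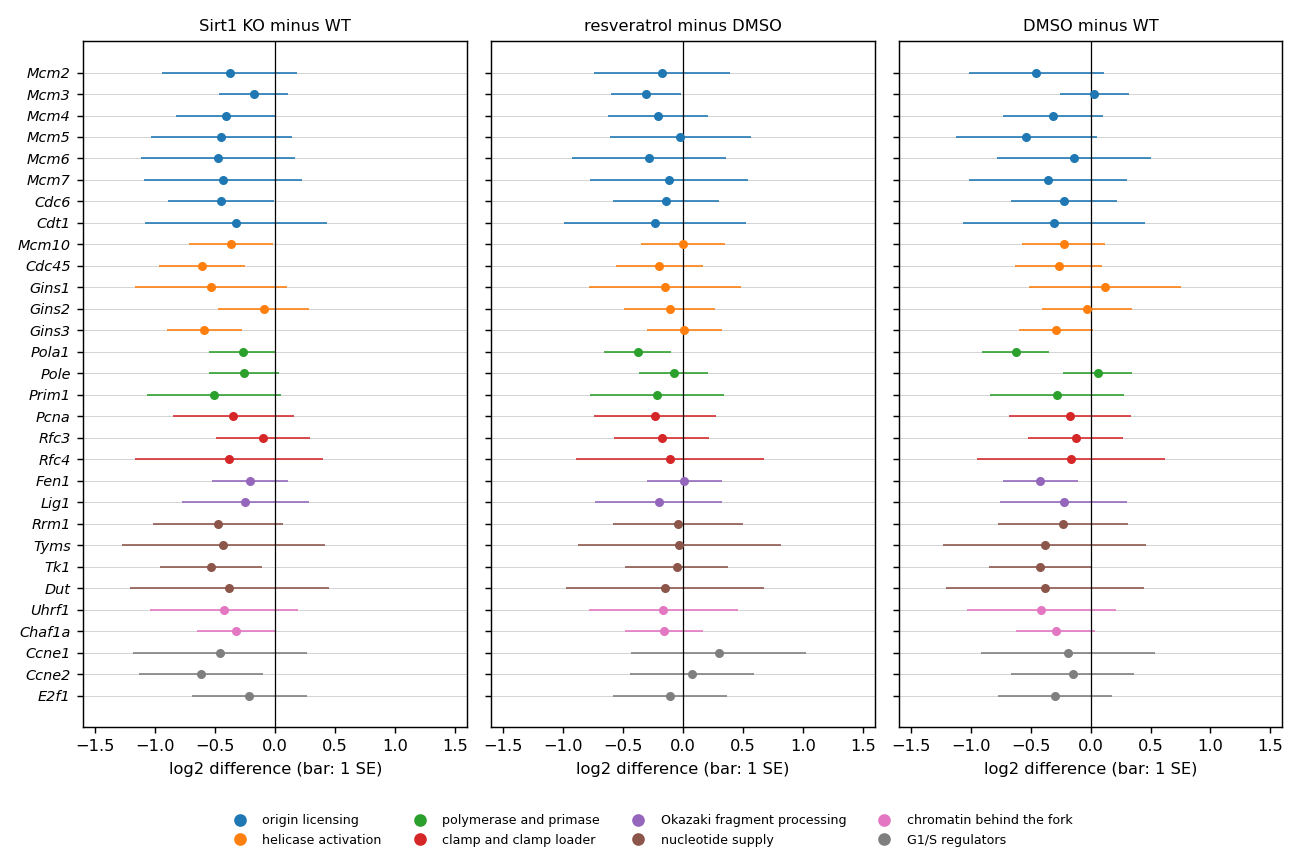
Each row is 1 gene, ordered and coloured by role, and each panel is 1 comparison, with the fitted log2 difference as a point and 1 standard error as a bar. All 30 points are left of 0 for Sirt1 KO minus WT, 25 for resveratrol minus DMSO and 27 for DMSO minus WT (19, 28 and 12 with normexp on the median signals), and none passed the test. Of all 13331 genes, 7430, 6424 and 6997 were lower.

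The control groups of the arms were also set side by side. DMSO and WT differ in strain, solvent and, for replicate 1, donor sex, which cannot be told apart, and each of them also serves as the control in a comparison above. The median of DMSO minus WT over the 30 genes was -0.27 against -0.02 over all genes. By the fitted difference 27 of the 30 were lower, against 6997 of all 13331 genes. With normexp on the median signals the median of the 30 was 0.04 and 12 of 30 were lower. By limma, 0 of the 30 had an adjusted p under 0.05, against 10 of the 13331 tested (0.075%), and at an unadjusted p under 0.05 there were 0 of the 30 and 747 of all genes (5.6%). In the pairs of the same number, 20 were lower in both and 1, Gins1, was higher in both, against 32.6% and 27.8% of all genes. The pair medians were -0.43 and -0.13. Leaving out an array moved the median between -0.71 (without DMSO 2) and 0.21 (without DMSO 1). It was -0.54 without WT 1 and 0.01 without WT 2, and -0.05 with slide as a block. As above, leaving out an array lets in the gap between replicates, and the slide block cannot tell slide from replicate number.

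Pola1 and Fen1 were the only 2 of the 30 whose DMSO arrays were both below both WT arrays. This was a smaller share than the 13.5% of all genes. Pola1 had the largest difference, -0.62 (SE 0.28), with an adjusted p of 0.952 by limma and pairs of -0.48 and -0.77. Fen1 was at 1.65 and 1.65 in WT and 1.09 and 1.38 in DMSO, a difference of -0.42 (SE 0.31). Mcm5, Mcm2 and Tk1 followed with -0.53 (SE 0.59), -0.45 (SE 0.56) and -0.42 (SE 0.43). Mcm5 was at 3.93 and 4.51 in WT and 3.06 and 4.31 in DMSO, and DMSO 2 lay between the WT arrays. Gins2 and Mcm3 had the smallest differences, -0.03 (SE 0.38) and 0.03 (SE 0.29), with pairs of opposite sign. Pcna had a difference of -0.17 (SE 0.51) and E2f1 of -0.30 (SE 0.48). That of Pcna turned to 0.24 under normexp on the median signals.

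Whether the Sirt1 KO and resveratrol differences were unequal was tested as a difference of differences. By limma, 0 of the 30 genes and 0% of the 13331 tested had an adjusted p under 0.05, with 0 of the 30 and 126 of all genes (0.945%) at an unadjusted p under 0.05. The median over the 30 was -0.25 against -0.05 over all genes (0.09 with normexp on the median signals, and between -0.76 and 0.20 when 1 array was left out). Ccne1 had the lowest value, -0.76 (SE 1.03), followed by Ccne2 with -0.69 (SE 0.73) and Gins3 with -0.60 (SE 0.44). The highest was that of Mcm3, 0.13 (SE 0.41). These standard errors do not allow a statement that any of the genes differed between the arms.

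Another 85 genes of replication, checkpoint and G1 control were listed by role, of which 82 were measured, with 1 array value left out for Rpa2. By limma, none had an adjusted p under 0.05 in the Sirt1 KO and resveratrol comparisons, nor in DMSO minus WT without a block. In Sirt1 KO minus WT, 66 of the 82 were lower by the fitted difference, with a median of -0.22 (43 and -0.015 with normexp on the median signals). Of all 13331 genes, 7430 were lower. All 8 further genes of helicase activation were lower in both pairs (5 with normexp on the median signals), among them Ticrr, which helps Cdc45 load, at -0.73 (SE 0.45), and Cdc7, the kinase that fires origins, at -0.59 (SE 0.26). All 7 further chromatin genes were lower in both pairs (1 with normexp on the median signals), among them the histone chaperone genes Asf1b at -0.57 (SE 0.48) and Chaf1b at -0.53 (SE 0.83). The other lists were mixed, against 32.6% of all genes lower in both pairs. Such genes were 7 of 8 for clamp and RPA, 3 of 4 for Okazaki fragments and 10 of 19 for regulators. They were 4 of 9 for nucleotide supply, 3 of 8 for licensing, 3 of 9 for polymerases and 3 of 9 for checkpoint. Rpa2 and Rrm2b were higher by the fitted difference, at 0.41 (SE 0.75) and 0.37 (SE 0.39). E2f7, a repressor of E2F targets, was at -0.66 (SE 0.35). Cdk2, the partner of the E cyclins, was at -1.91 (SE 1.14), a value set by 1 array: it was -7.93 on Sirt1 KO 1 and between -4.91 and -3.89 on the other 7.

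In resveratrol minus DMSO, 57 of the 82 were lower (6424 of all 13331 genes), with a median of -0.06. The largest difference was that of Cdkn1a, which encodes the cyclin-dependent kinase inhibitor p21, at 1.13 (SE 0.60). Its levels were 3.21 and 4.02 on the DMSO arrays and 4.17 and 5.32 on the resveratrol arrays, with no overlap and an adjusted p of 0.999996 by limma. Rbl1, which encodes the pocket protein p107, was at -0.41 (SE 0.37), and Pold4, a small subunit of polymerase delta, at 0.42 (SE 0.33).

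In DMSO minus WT, the list held larger differences than the 30 genes did. Prim2, the large primase subunit, was at -2.36 and -1.21 on the WT arrays and 1.59 and 2.62 on the DMSO arrays, a difference of 3.89 (SE 0.57) with an adjusted p of 0.106 by limma (8.0e-05 with replicate number as a block and 0.0026 with slide as a block), and its partner Prim1 had one of -0.28 (SE 0.56). Mcmbp, a binding partner of the Mcm subunits, was at 0.96 (SE 0.23) and Cdkn1b, which encodes the inhibitor p27, at 1.39 (SE 0.28). Shmt1, of folate metabolism, was at -1.10 (SE 0.40) and Pold2, of polymerase delta, at -0.85 (SE 0.33). With replicate number as a block limma called 10 of the 82. Of these, 4 were higher and 6 lower (4.88% and 7.32%), against 2.77% and 2.99% of all genes. Among them were Prim2, Mcmbp, Cdkn1b and Pold2 but not Shmt1. With slide as a block limma called Prim2 only, against 145 of the 13331 genes tested.

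Mitosis genes, a list of 22, had medians close to those of the replication genes in the Sirt1 KO and resveratrol comparisons. Both Sirt1 KO arrays lay below both WT arrays for 9 of the 22. That held for 2 of the 30 replication genes and 7.38% of all genes. In Sirt1 KO minus WT all 22 were lower by the fitted difference, with a median of -0.44, and 21 were lower in both pairs (19, -0.11 and 13 with normexp on the median signals). In resveratrol minus DMSO the median was -0.14, with 19 lower. Their medians of replicate 1 minus replicate 2 ran from -0.40 in Sirt1 KO to -0.13 in resveratrol, and from -0.13 to 0.20 with quantile normalization, where they were below 0 in Sirt1 KO only.

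Markers of other cell types also differed between groups, and their part in the values above was not tested. Of 8 astrocyte markers, 7 were higher in Sirt1 KO than in WT, with a median of 0.72 (5 of 8 and 0.28 with normexp on the median signals), and their summed level relative to the 75th percentile was 90.2 to 150 on the WT arrays and 156 to 231 on the Sirt1 KO arrays. Of 7 measured oligodendrocyte markers, 5 were higher, with a median of 0.50 (4 and 0.06 with normexp on the median signals) and a summed level of 6.48 to 7.59 in WT and 9.61 to 10.6 in Sirt1 KO. Mog, a defining marker of mature oligodendrocytes, was not well above background. The 10 stem and progenitor markers had a median of -0.07 (0.02 with quantile normalization). In resveratrol minus DMSO all 6 markers of oligodendrocyte precursors were lower, with a median of -0.54. Their summed level was 193 to 218 in DMSO and 163 to 164 in resveratrol. In that comparison 7 of 8 astrocyte markers were higher, with a median of 0.20. Of the 7 oligodendrocyte markers 5 were lower there, with a median of -0.28. Of the neuronal markers, Stmn2, Neurod1 and Snap25 were not well above background, and the other 5 had medians of -0.04 in Sirt1 KO minus WT and -0.25 in resveratrol minus DMSO. In DMSO minus WT, 5 of 8 astrocyte markers were higher, with a median of 0.70 (-0.16 with normexp on the median signals) and a summed level of 178 to 204 in DMSO. Of the 7 oligodendrocyte markers 5 were higher, with a median of 0.71 (0.05 with normexp on the median signals) and a summed level of 8.93 to 10.6 in DMSO. Of the 6 markers of oligodendrocyte precursors 5 were higher, with a median of 0.76 and a summed level of 172 to 195 in WT against 193 to 218 in DMSO, so the groups overlapped.

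**Figure D5:**
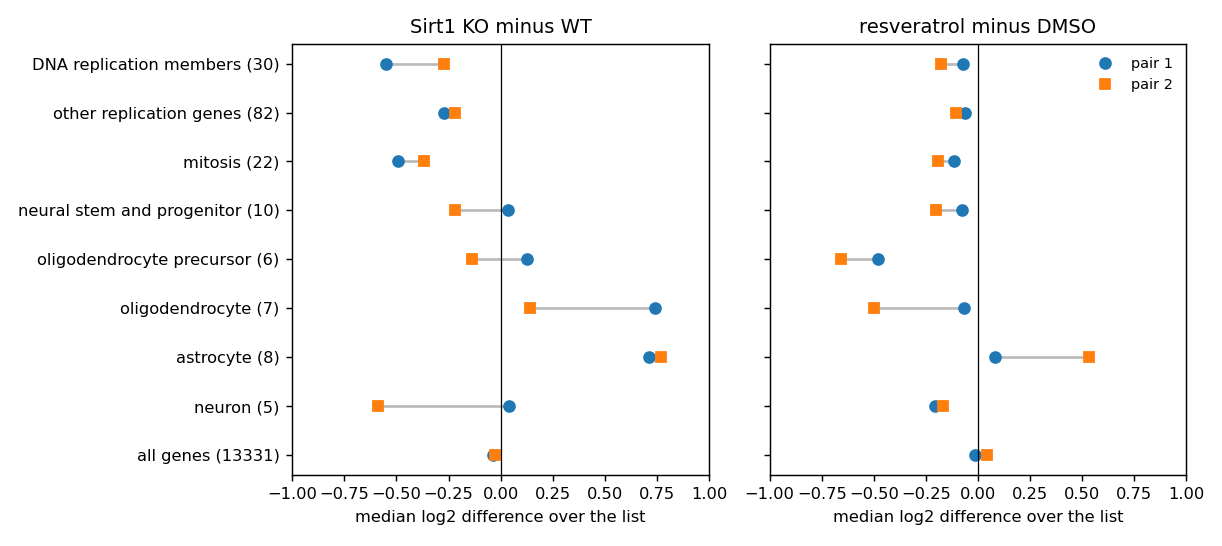
Each row is a gene list with its number of measured genes, and the points are the median log2 differences over the list between the replicate 1 arrays (circles) and the replicate 2 arrays (squares). For Sirt1 KO minus WT the 30 replication genes were at -0.55 and -0.27 (a fitted median of -0.08 with normexp on the median signals), beside mitosis genes at -0.49 and -0.37 and astrocyte markers at 0.71 and 0.77. For resveratrol minus DMSO the replication genes were at -0.07 and -0.18.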

How the data were processed

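Total RNA was hybridised to 8 one-colour arrays, scanned and read with Agilent Feature Extraction 10.7, per the submitters' processing notes. Per the file headers, scanner files as deposited give each spot an intensity that the software had corrected for background but not normalized across arrays, and other flags of quality. The deposited table of log2 values was an alternative, which the authors appear to have quantile normalized in separate sets (ordered values of WT 1 and WT 2 matched within 0.01 for 5.69% of probes, those of WT 1 and Sirt1 KO 1 for 99.9%).

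Each array had 45018 spots, with 1639 controls. Log2 processed intensity was centred on the array's 75th percentile, flagged outliers were left out, and spots were averaged over 41174 probes. Probes entered where both arrays of some group were well above background (26361 probes). Accessions gave symbols through a RefSeq table (14256 probes had none), and the brightest kept probe stood for a gene. limma 3.58.1 in R 4.3.3 fitted 4 group means over 8 arrays with an intensity trend, two-sided, adjusted over 13331 genes at 0.05. The script was tested on simulated data with noise drawn independently for each gene and array. Deviations shared between arrays were not simulated, so that test does not show how well changes are found here. Only 2 arrays per group limit the precision. Alternatives were other background corrections, quantile normalization, the deposited table, no filter on dim probes, the mean of probes, no trend, replicate and slide blocks, and leaving out each array. Normexp used median signals (offset 50), chosen after the files were seen.

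The genes and lists were chosen with earlier results of these data known. Genes given by array were, in each comparison, the 4 largest and 2 smallest differences, with Pcna, Mcm2 and E2f1. Dut, Tyms and Fen1 were added after their values were seen. Up to 2 genes were named per further list, and a few of these are printed.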

Additional observations from a re-analysis of the deposited data

How the results depend on the processing

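The 30 genes gave 0 calls in every comparison under every alternative. The Sirt1 KO minus WT median was -0.080 under normexp on the median signals, with 9 genes lower in both pairs, and -0.77 with slide as a block. With 1 background value per array in place of the local one normexp gave -0.39. Quantile normalization gave -0.37 and the deposited table -0.35, each with all 30 lower by the fitted difference. The DMSO minus WT median was 0.040 under normexp on the median signals, with 4 genes lower in both pairs and 4 genes called of all tested, and -0.047 with slide as a block, which called 145. The slide block cannot tell slide from replicate number in the DMSO and resveratrol groups. The cause of these changes was not tested. Under normexp on the median signals 11 of the 30 changed sign in Sirt1 KO minus WT, 15 in DMSO minus WT and 3 in resveratrol minus DMSO. Among the genes chosen by the naming rule these were Mcm2 (0.028), Gins2 (0.14) and Pcna (0.040) in Sirt1 KO minus WT, and Gins2 (0.16) and Pcna (0.24) in DMSO minus WT. With slide as a block 12 did so in DMSO minus WT, among them by that rule Gins2 (0.020) and Mcm3 (-0.049). Mcm10 in resveratrol minus DMSO was -0.0088 under that normexp, -0.011 with 1 background value per array, -0.030 with quantile normalization and -0.030 in the deposited table.

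Same-numbered arrays deviated together (correlations over genes of 0.737 for WT with Sirt1 KO and 0.834 for DMSO with resveratrol), but the labels name no shared source and there are 2 pairs per arm. With replicate number as a block, 57 of all genes were called for Sirt1 KO minus WT, 73 for resveratrol minus DMSO, 768 for DMSO minus WT and 49 for the difference of differences. The smallest adjusted p of the 30 was 0.095, 0.271 and 0.064 in the first 3, and 21, 3 and 12 of the 30 had an unadjusted p under 0.05, against 1796, 1888 and 2800 of all genes.

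Leaving out 1 array in turn, the medians ran from -0.84 to 0.039 for Sirt1 KO minus WT, from -0.62 to 0.31 for resveratrol minus DMSO and from -0.71 to 0.21 for DMSO minus WT, and the counts of all genes called from 0 to 5, 0 to 0 and 0 to 4, and from 0 to 3 for the difference of differences. In Sirt1 KO minus WT, the range crossed 0 for Mcm2 (-0.83 to 0.073), Gins1 (-1.10 to 0.029), Gins2 (-0.44 to 0.25), Rfc3 (-0.43 to 0.23), Ccne2 (-1.26 to 0.028), E2f1 (-0.73 to 0.30). In resveratrol minus DMSO, the range crossed 0 for Mcm2 (-0.74 to 0.39), Mcm6 (-0.79 to 0.23), Mcm10 (-0.24 to 0.24), Gins3 (-0.20 to 0.22), Pcna (-0.71 to 0.24), Ccne1 (-0.41 to 1.01), E2f1 (-0.52 to 0.30). In DMSO minus WT, the range crossed 0 for Mcm2 (-1.02 to 0.12), Mcm3 (-0.24 to 0.31), Mcm5 (-1.16 to 0.092), Gins2 (-0.46 to 0.40), Pcna (-0.64 to 0.31), E2f1 (-0.71 to 0.11). Normexp on mean signals was not run, since the files used hold median signals, nor was the deposited table for DMSO minus WT, which spans its separately normalized sets. Leaving out 1 array also unbalances the replicates between groups, so the gap between replicates enters the ranges above. Precision is limited by having 2 arrays in each group.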
